A study of Homo sapiens with 4 samples.

Results

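The mitotic spindle and kinetochore genes are a set of 43 genes whose products drive entry into mitosis, build the spindle, hold chromosomes to it and separate the daughter cells. They were taken by symbol from the table of gene-level FPKM (fragments scaled to exon length and to library depth), keeping rows on a chr chromosome. The rule names genes by function and sets no threshold on a measured value, but the list was drawn up with earlier results of these data known. All 43 were found among 56423 genes, and all 43 passed a minimum mean of 1 FPKM over the libraries, as did 15057 genes in all. FaDu cells, an established epithelial line of human hypopharyngeal squamous cancer, were sequenced in 4 libraries. N-scr was normoxia with the scrambled control, N-si was normoxia with TET1-si, H-scr was hypoxia with the scrambled control and H-si was hypoxia with TET1-si. Hypoxia was 1% oxygen for 19 h. In the study's methods both the scrambled and the TET1 hairpins were delivered by lentivirus in pLKO.1-puro, so every library carried a vector. A single hairpin against TET1 is given there, and the study asked which genes respond to hypoxia through TET1, a dioxygenase that turns 5-methylcytosine in DNA into 5-hydroxymethylcytosine.

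Since each group was 1 library, the differences below could not be set against replicates and carry no p-value. Changes are differences of log2(FPKM + 0.1), and a gene was counted as changed at 2-fold or more. The 95% intervals of a change between 2 libraries are exact Clopper-Pearson intervals on approximate read numbers. Those of the difference between responses are normal approximations from the read numbers of all 4 libraries. All of them cover counting error only, and say nothing of the spread between cultures.

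Mitosis begins when CDK1 bound to a B-type or A-type cyclin becomes active. Motor proteins and kinases then shape microtubules into a bipolar spindle, kinetochores on the centromeres capture its fibres, and a checkpoint delays anaphase until every chromosome is attached. CDC20 with the anaphase-promoting complex (APC/C) ends the delay by marking securin and cyclin B for destruction. The genes for these proteins are known to be transcribed together, late in the cell cycle, and are low in cells that do not divide. Their promoters are known for a short element called the CHR (cell cycle genes homology region), bound by the MuvB complex with B-MYB and FOXM1 in dividing cells and with the RB-like proteins and E2F4 in resting cells, and for CCAAT boxes, bound by NF-Y.

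Promoter sequence, which the choice of genes did not use, is shown first because the CHR and the CCAAT box were shared by most of the set. Promoters from 250 bases before to 50 bases after the annotated start were taken from RefSeq (GRCh38.p14) and matched by symbol for 36 of the 43 genes. AURKA, BIRC5, BUB3, FOXM1, TPX2, TTK and UBE2C were not matched. Every motif was searched on both strands. The CHR was searched as TTTGAA or TTCGAA. It was present in 28 of 36 promoters (77.8%), against 10.9% of the 9056 promoters of genes that passed the minimum of 1 FPKM and 16.6% of all 27305 promoters of that length. The windows below show it in at least 1 gene from each role. They are 30 bases long, on the strand of the gene, with the CHR in capitals (TTCAAA where it reads on the opposite strand) and with positions counted from the annotated start as 0 to the first base of the motif.
CDCA3, position -3, chr12:6851275-6851304, minus strand: gggcgtggcgggaagTTTGAAactggtaac
PLK1, position -29, chr16:23678845-23678874, plus strand: gttcccagcgccgcgTTTGAAttcggggag
DLGAP5, position 3, chr14:55191568-55191597, minus strand: gctcggtgcggcaagTTTGAAtttcgtgga
KIF15, position -35, chr3:44761744-44761773, plus strand: gatccaagcgccaaaTTCAAAtttgcggcc
CENPA, position -18, chr2:26786023-26786052, plus strand: gggcggagcgagcgaTTTGAAcgcgagcgg
BUB1, position 1, chr2:110678048-110678077, minus strand: cggctgcgcggggtaTTCGAAtcggcggcg
INCENP, position -10, chr11:62123986-62124015, plus strand: ggctgagccttcagtTTTGAAaatcatagt
CDCA5, position -26, chr11:65084052-65084081, minus strand: ccgcagggcgggtaaTTCGAAcgttttttg
PRC1, position -20, chr15:90994541-90994570, minus strand: cgccccgtggcgcggTTTGAAattttgcgg
MKI67, position -29, chr10:128126438-128126467, minus strand: gaatcttcgttttcgTTTGAAttgggcggg
ASPM, position -113, chr1:197146768-197146797, minus strand: ggccggatgcaatcaTTCAAAtgaagcgcc

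The letters gcgcc at the end of the ASPM window belong, on the opposite strand, to the only pair found in the set, GGCGC placed 4 bases before a CHR. That pair contains a CHR by definition and was present in 1 of 36 promoters, against 0.0403% of all promoters. CCAAT was present in 27 of 36 promoters (75%), against 37.1% of promoters of genes that passed the minimum of 1 FPKM and 35.7% of all promoters, and 17 of the 36 held at least 2. Both motifs stood in 22 of the 36 (61.1%), against 4.67% of promoters of genes that passed the minimum of 1 FPKM. The full 250 bases before the start are shown for CDC20, which holds both motifs, and for CCNA2, which holds a CCAAT box and no CHR in these letters and had the largest change after TET1-si. CHR and CCAAT matches are in capitals, with CCAAT written ATTGG where it reads on the opposite strand.
CDC20, chr1:43358731-43358980, plus strand: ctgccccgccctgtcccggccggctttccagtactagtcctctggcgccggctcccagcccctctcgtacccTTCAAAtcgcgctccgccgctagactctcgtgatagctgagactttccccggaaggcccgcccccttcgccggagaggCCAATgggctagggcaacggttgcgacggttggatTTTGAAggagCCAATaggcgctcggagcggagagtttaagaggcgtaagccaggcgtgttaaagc
CCNA2, chr4:121823884-121824133, minus strand: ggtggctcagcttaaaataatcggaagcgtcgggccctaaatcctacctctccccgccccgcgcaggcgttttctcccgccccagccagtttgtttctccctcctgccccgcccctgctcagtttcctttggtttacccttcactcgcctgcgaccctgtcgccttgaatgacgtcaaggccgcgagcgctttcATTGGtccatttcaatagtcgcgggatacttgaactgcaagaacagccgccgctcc

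Of the 36 CHR matches in the 28 promoters, 27 lay within 60 bases of the start, with a median position of -27. The 60 CCAAT matches had a median position of -72. The 8 promoters without a CHR match were those of AURKB, CCNA2, CCNB1, CDC25C, CENPE, KIF20A, KIF2C and PTTG1. A match is only a run of letters, and a promoter without one lacks those letters in this window.

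**Figure D1:**
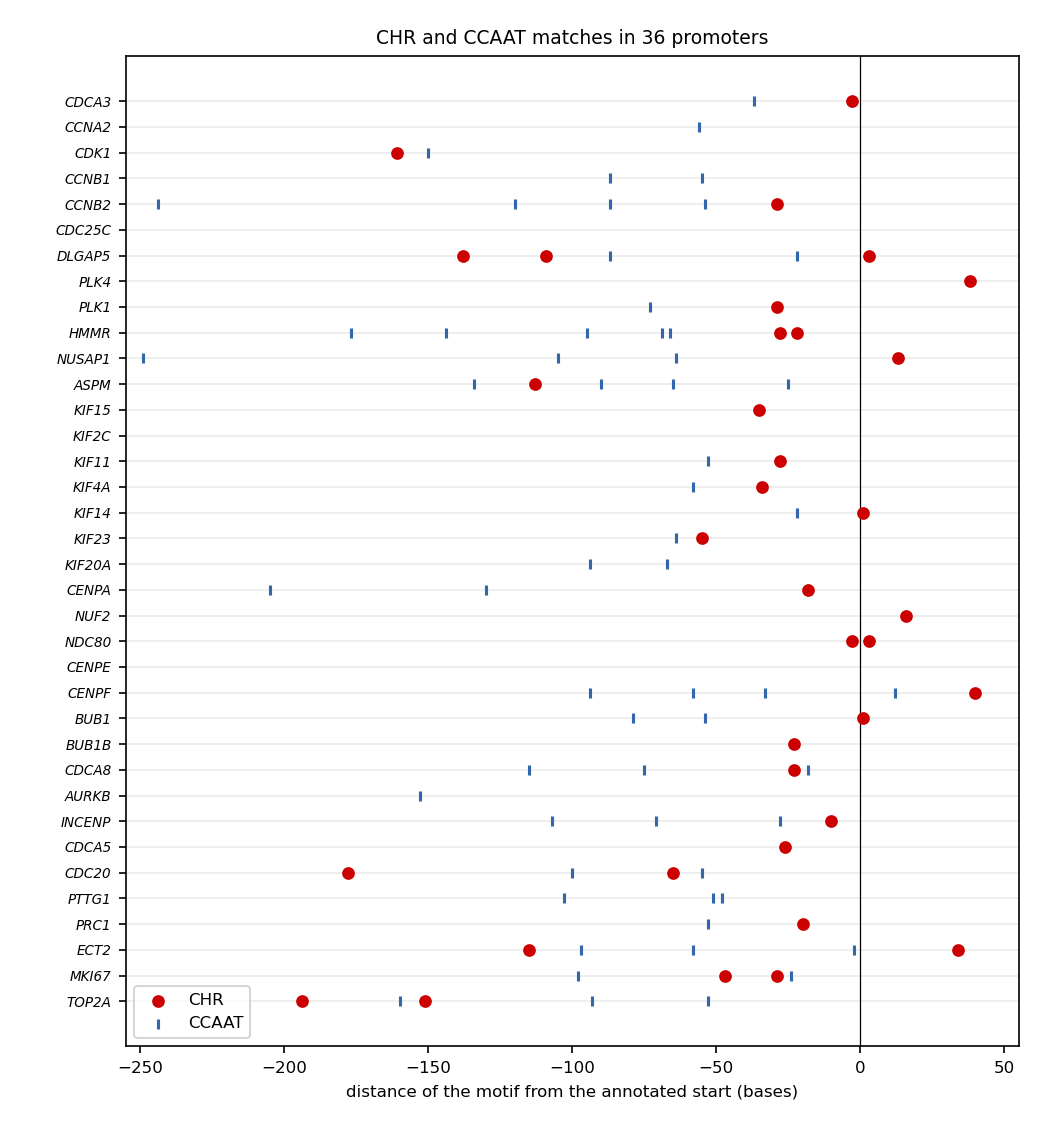
Positions of CHR (dots) and CCAAT (bars) matches in the promoters of 36 mitotic genes; the x axis is the distance from the annotated start in bases and each row is a gene. CHR matches gather close to the start, where 27 of 36 lie within 60 bases, and CCAAT matches lie mostly farther upstream, with a median position of -72.

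Depth and identity were checked over the whole table. Recovered depths were 22400000 to 24500000 reads per library. TET1 (ENSG00000138336, chr10:70320413-70454239, plus strand, hg19) had 0.129, 0.0493, 0.331 and 0.122 FPKM (N-scr, N-si, H-scr, H-si), and was lower in the TET1-si library in both oxygen states. These values rest on about 28, 11, 76 and 26 reads. The hairpin's target, shown because it defines the knockdown, is ccttgatagaatcactcagtt (21 bases, chr10:70451833-70451853, hg19, in the 3′ UTR in exon 12 of 12 of the TET1 transcript). Of 12 epithelial markers, 10 were above 1 FPKM in all 4 libraries. After TET1-si the 12 moved in both directions, 9 lower and 3 higher under normoxia, and 8 lower and 4 higher under hypoxia. KRT6A fell most, from 67.7 and 109 FPKM in the scrambled libraries to 0.394 and 0.357 in the TET1-si libraries (normoxia, hypoxia). CDH1 was higher, at 179 and 292 FPKM in the scrambled libraries and 267 and 399 in the TET1-si libraries. Of 12 markers of other cell types 11 were matched, their summed level was 36.9 to 116 FPKM, 4 of them (COL1A1, CDH5, CD14 and CD68) were above 1 FPKM in all 4 libraries, and COL1A2 and CD3E were at 0 throughout. The median change of protein-coding genes also differed by chromosome after TET1-si, under normoxia from -0.26 on chromosome 7 to 0.77 on chromosome 21 among nuclear chromosomes, and was -0.54 over the 13 genes of the mitochondrial genome. The part of these differences in the results below was not tested.

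The mitotic genes were lower in hypoxia than in normoxia, and lower still in hypoxia where TET1 was knocked down. H-si held the lowest of the 4 values for 43 of 43 genes, against 25.9% of all genes tested. Both hypoxia libraries lay below both normoxia libraries for 41 of 43, against 23.1% of all genes tested. The summed level of the set was 4613, 4905, 2871 and 1602 FPKM (N-scr, N-si, H-scr, H-si), which is 0.561%, 0.618%, 0.379% and 0.222% of each library's total. In RNA from whole cultures, fewer dividing cells and less mitotic RNA per dividing cell cannot be told apart.

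**Figure D2:**
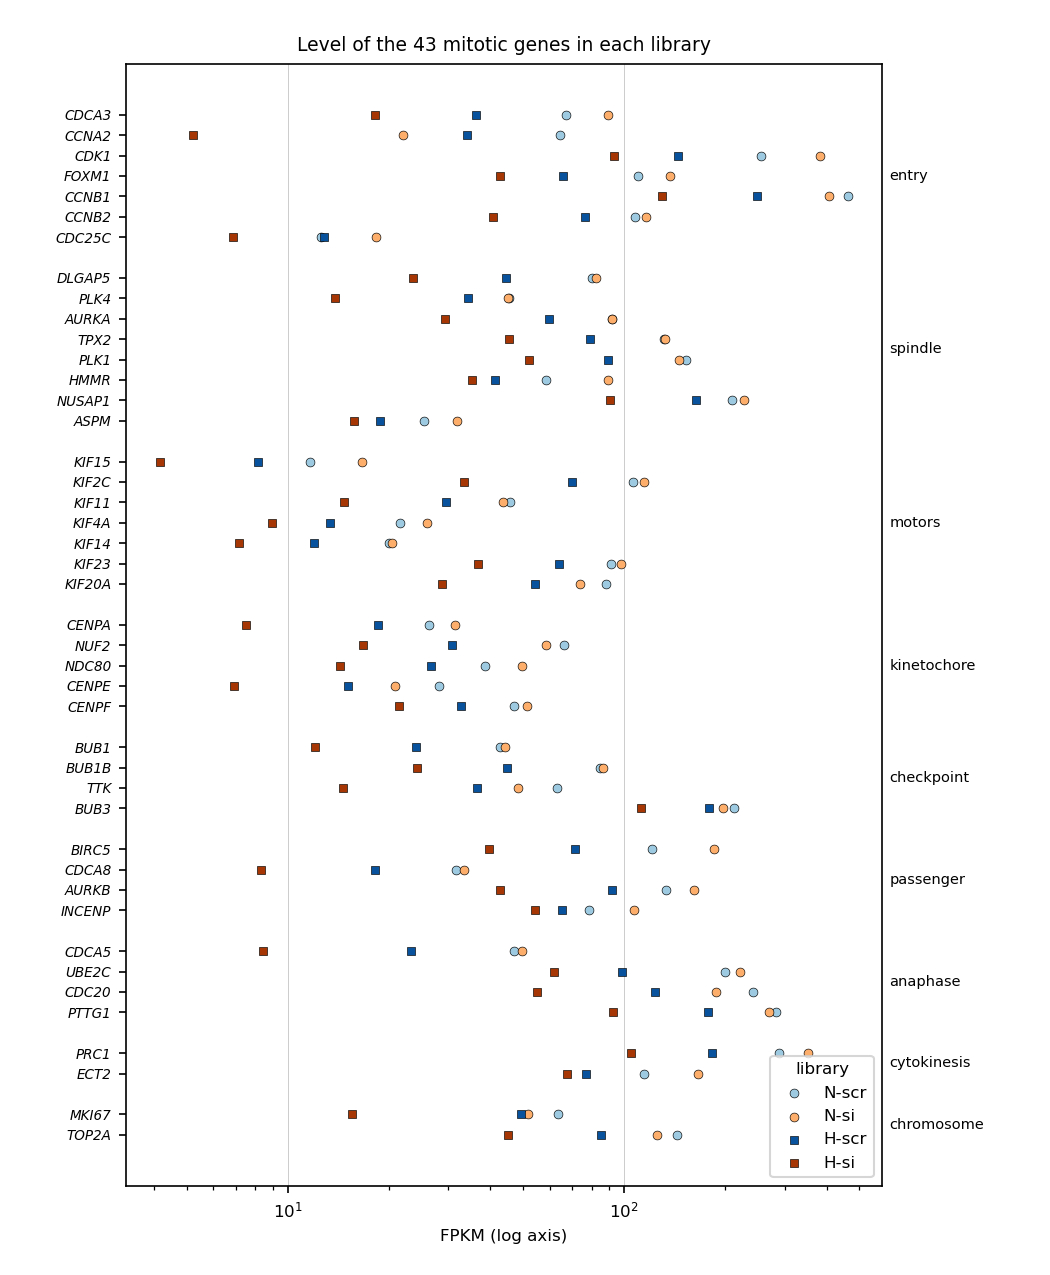
FPKM (log axis) of each of the 43 mitotic genes in the 4 libraries, with 1 point per library and genes grouped by role; circles are normoxia, squares are hypoxia, blue is the scrambled control and orange to brown is TET1-si. In each of the 43 rows the H-si square is the leftmost point, and the normoxia circles stand to the right of both squares in 41 rows.

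In scrambled cells the hypoxia response (H-scr against N-scr) was modest. It was negative for 42 of 43 genes with a median of -0.68, while the median of all genes tested was 0.047. Genes kept 46.5% to 102% of their normoxia level, with a median of 62.2%. Only 3 were at least 2-fold lower, NUF2 (-1.10), UBE2C (-1.02) and CDCA5 (-1.01), which is 3 of 43 against 4.53% of all genes tested. This count was 9 with median-of-ratios scaling, 1 with upper-quartile scaling and 0 as TPM. None of the 43 was at least 2-fold higher, against 12.9% of all genes tested.

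In TET1-si cells the hypoxia response (H-si against N-si) was negative for all 43, with a median of -1.67 against 0.026 over all genes tested. Genes kept 17.0% (CDCA5) to 57.0% (BUB3) of their normoxia level, with a median of 31.4%. At least 2-fold lower were 41 of 43, against 8.66% of all genes tested, and the exceptions were BUB3 (-0.81) and INCENP (-0.97). None was at least 2-fold higher, against 12.5% of all genes tested.

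The difference between the responses (TET1-si cells less scrambled cells) was below 0 for all 43, and its counting interval lay below 0 for 43 of 43. Its median was -0.93, against -0.059 over all genes tested. The difference was at least 2-fold for 18 of 43, against 7.86% of all genes tested, and ran from -1.55 for CENPA to -0.56 for BUB3. In the other direction 0 of 43 reached 2-fold, against 4.87% of all genes tested. The 2 responses share no library, and across the 43 genes Spearman's rho between them was 0.56, a description over genes that are not independent replicates.

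**Figure D3:**
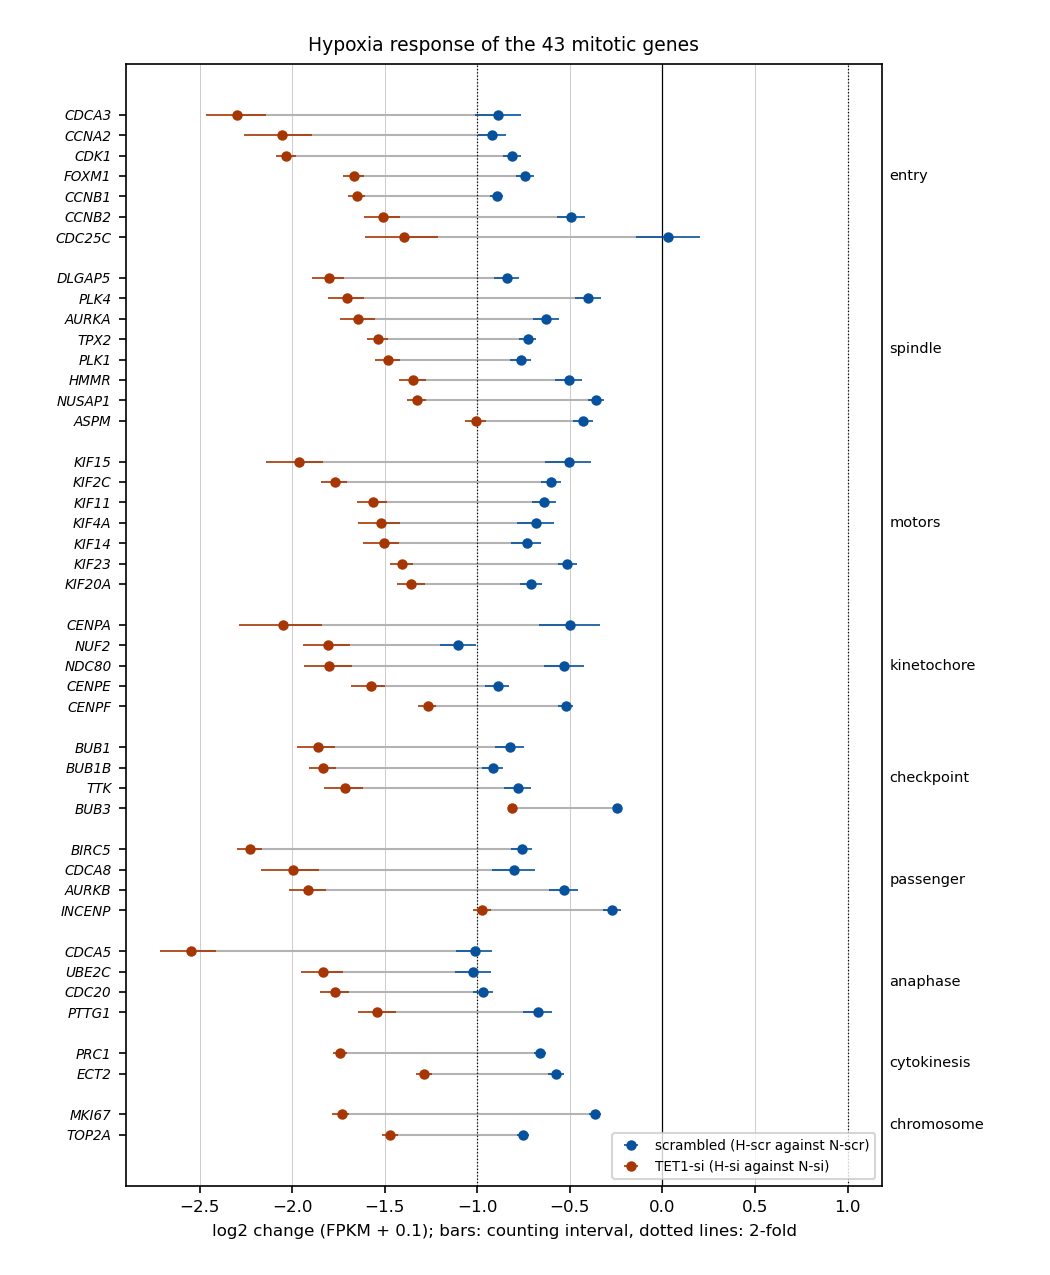
Hypoxia response of each mitotic gene as a log2 change of FPKM + 0.1, in scrambled cells (blue) and in TET1-si cells (brown); bars are 95% counting intervals, dotted lines mark 2-fold, and genes are grouped by role. Every brown point lies to the left of its blue point, 41 brown points pass 2-fold and 3 blue points do.

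Runs of 4 unlabelled FPKM values below keep the library order used for TET1 above, and a pair of responses gives the hypoxia response of scrambled cells and then that of TET1-si cells. Genes for entry into mitosis were led by CCNB1, which encodes cyclin B1, the regulatory partner of CDK1. CCNB1 (ENSG00000134057, chr5:68462837-68474072, plus strand, hg19) was the highest of the 43 in every library, at 462, 407, 248 and 129 FPKM (N-scr, N-si, H-scr, H-si). Its hypoxia response was -0.90 (interval -0.93 to -0.86) in scrambled cells and -1.65 (-1.70 to -1.61) in TET1-si cells. Both normoxia libraries were high, H-scr was intermediate and H-si low.

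CDCA3, which encodes a trigger of mitotic entry that helps degrade WEE1, had the lowest response of the 7 entry genes in TET1-si cells. It had 66.9, 89.5, 36.1 and 18.1 FPKM (N-scr, N-si, H-scr, H-si), and responses of -0.89 and -2.30. Normoxia was above hypoxia with and without TET1-si, and the span was wider with it. CDC25C, a phosphatase that activates CDK1, had the highest response of the 7, at 12.6, 18.2, 12.8 and 6.85 FPKM in the same order. It was the 1 gene of the 43 that was not lower in H-scr than in N-scr (0.028, interval -0.14 to 0.20), yet its response in TET1-si cells was -1.40 (-1.61 to -1.22). FOXM1, a transcription factor that acts on the promoters of many of these genes, had 110, 136, 65.8 and 42.9 FPKM and responses of -0.74 and -1.67. All 7 entry genes were at least 2-fold lower in TET1-si cells under hypoxia and 0 of 7 in scrambled cells.

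Among 8 genes of spindle assembly, all 8 passed 2-fold in TET1-si cells and 0 in scrambled cells, with medians of -1.51 and -0.57. AURKA, a kinase of the spindle poles, had 92.1, 92.1, 59.6 and 29.4 FPKM. Its normoxia libraries stood at the same level (TET1-si response 0.00, interval -0.06 to 0.06), and its TET1-si response under hypoxia was -1.02. PLK1, a kinase that acts from spindle assembly to cytokinesis, had 153, 146, 89.7 and 52.1 FPKM and responses of -0.77 and -1.48. DLGAP5, which stabilises spindle microtubules near chromosomes, had 80.1, 82.5, 44.6 and 23.6 FPKM and the lowest response of the group in TET1-si cells, -1.80. ASPM, which organises spindle poles, had 25.4, 31.7, 18.8 and 15.7 FPKM and the highest, -1.01. For ASPM the hypoxia libraries stood close together (-0.26, interval -0.32 to -0.20), whereas for AURKA, PLK1 and DLGAP5 they were well apart.

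The 7 kinesin motors had a median hypoxia response of -0.64 with the scrambled control and -1.52 with TET1-si, and 7 of 7 were at least 2-fold lower in TET1-si cells against 0 of 7 in scrambled cells. KIF15, a motor that helps keep the spindle bipolar, was the lowest of the 43 genes in every library, at 11.6, 16.6, 8.14 and 4.17 FPKM. Its lowest value rests on about 426 reads. KIF15 overlaps TMEM42 on the same strand, whose FPKM was 3.35, 6.05, 4.28 and 11.7, and reads may be shared. KIF15 had the lowest response of the motors in TET1-si cells (-1.96), and KIF20A, a motor of the central spindle, had the highest (-1.36) with 88.5, 73.8, 54.1 and 28.8 FPKM. The other motors, KIF11, KIF14, KIF23, KIF2C and KIF4A, lay between them.

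At the kinetochore, CENPA (ENSG00000115163, chr2:26987157-27023935, plus strand, hg19) encodes the histone H3 variant that marks centromeres. It had 26.3, 31.3, 18.5 and 7.49 FPKM (N-scr, N-si, H-scr, H-si). Its response went from -0.50 (-0.67 to -0.34) in scrambled cells to -2.05 (-2.29 to -1.84) in TET1-si cells, the widest gap of the 43 (-1.55, interval -1.82 to -1.27). CENPA overlaps SLC35F6 on the same strand, whose FPKM was 7.57, 12.5, 6.53 and 9.20, and reads may be shared. CENPE, a kinetochore motor that aligns chromosomes, had 28.1, 20.8, 15.1 and 6.92 FPKM. It was lower in TET1-si cells in both oxygen states, with TET1-si responses of -0.43 under normoxia and -1.12 under hypoxia. CENPF, a large protein of the outer kinetochore, had 47.1, 51.5, 32.8 and 21.3 FPKM and the highest response of the 5 kinetochore genes in TET1-si cells, -1.27. NDC80 and NUF2, which pair in the complex that grips microtubules, responded at -1.80 and -1.81 in TET1-si cells but at -0.53 and -1.10 in scrambled cells.

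Checkpoint genes divided into 3 with large responses and BUB3 with a small one. BUB1, a checkpoint kinase, had 42.7, 44.1, 24.1 and 12.1 FPKM and a response of -1.86 in TET1-si cells, and BUB1B and TTK were at -1.83 and -1.72. BUB3 (ENSG00000154473, chr10:124913793-124924886, plus strand, hg19), a partner that brings BUB1 and BUB1B to the kinetochore, had 212, 197, 179 and 112 FPKM and responses of -0.25 and -0.81. The ratio of BUB1B to BUB3 FPKM went from 0.398 and 0.439 under normoxia (scrambled, TET1-si) to 0.250 and 0.215 under hypoxia. BUB3 kept more of its level than its partners in both hypoxia libraries.

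The chromosomal passenger complex, which corrects faulty attachments and guides cytokinesis, showed the same kind of split. Its kinase AURKB had 133, 162, 92.1 and 42.8 FPKM, with responses of -0.53 and -1.92. BIRC5, which encodes survivin, had 121, 185, 71.4 and 39.5 FPKM, with responses of -0.76 and -2.23. INCENP (ENSG00000149503, chr11:61891445-61920635, plus strand, hg19), the scaffold that binds the others, had 78.8, 107, 65.2 and 54.5 FPKM, with responses of -0.27 and -0.97. The ratio of AURKB to INCENP was 1.69, 1.51, 1.41 and 0.785 in the same order of libraries, and that of BIRC5 to INCENP was 1.54, 1.73, 1.09 and 0.726. In H-si alone the kinase and survivin were below their scaffold in FPKM.

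Genes of the metaphase to anaphase transition included CDCA5, with the lowest response of the 43 in TET1-si cells. CDCA5 (ENSG00000146670, chr11:64833772-64851636, minus strand, hg19) encodes sororin, which protects sister chromatid cohesion. It had 47.0, 49.6, 23.2 and 8.40 FPKM (N-scr, N-si, H-scr, H-si), and responses of -1.01 (-1.12 to -0.92) and -2.55 (-2.71 to -2.41), or 5.90-fold lower in the TET1-si cells. CDC20 (ENSG00000117399, chr1:43824626-43828874, plus strand, hg19), the activator of the APC/C, had 241, 187, 123 and 54.9 FPKM and responses of -0.97 and -1.77. PTTG1, which encodes securin, had 283, 270, 177 and 92.8 FPKM and the highest response of the 4, -1.54. PTTG1 has near-identical copies elsewhere in the genome, so its level is uncertain where reads could be shared. UBE2C, the ubiquitin-conjugating enzyme that works with the APC/C, was at least 2-fold lower in both hypoxia comparisons (-1.02 and -1.84).

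Both cytokinesis genes were high in normoxia and low in H-si. PRC1, which bundles microtubules of the central spindle, had 289, 351, 182 and 105 FPKM and a response of -1.74 in TET1-si cells, and ECT2, the exchange factor that activates RhoA for the contractile ring, had 114, 165, 76.7 and 67.7 FPKM and a response of -1.29. For ECT2 the hypoxia libraries were the closest of all 43 genes, at -0.18 (-0.23 to -0.13). MKI67 encodes the Ki-67 proliferation marker that coats mitotic chromosomes. It had 63.6, 51.9, 49.4 and 15.5 FPKM (N-scr, N-si, H-scr, H-si), with responses of -0.36 (-0.39 to -0.33) and -1.73 (-1.79 to -1.69). H-si stood far below the other libraries, which spanned a narrower range. TOP2A, which encodes topoisomerase II alpha, had 144, 125, 85.3 and 45.1 FPKM and responses of -0.75 and -1.47.

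Under hypoxia, TET1-si cells had less of every mitotic RNA than scrambled cells (H-si against H-scr). The change was negative for 43 of 43 with a median of -0.91, while over all genes tested the median was 0.10. At least 2-fold lower were 12 of 43, against 8.35% of all genes tested: CCNA2, MKI67, CDCA5, TTK, PLK4, CENPA, CDC20, CDCA8, CENPE, AURKB, KIF2C and AURKA. KIF11 lay just short of 2-fold. None was at least 2-fold higher, against 12% of all genes tested. The count is sensitive to scale because many genes stood near 2-fold: it was 26 with median-of-ratios scaling and 20 with each gene set against the median of its chromosome.

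Under normoxia the set was spread around no change (N-si against N-scr). As deposited, 29 genes were higher and 14 lower in N-si, with a median of 0.078 against 0.15 over all genes tested, but the median turned to -0.088 under median-of-ratios scaling, to -0.040 under upper-quartile scaling and to -0.11 against chromosome medians. Across the 10 settings tried, 14 genes were higher in each, 13 were lower in each and 16 depended on the setting. Of these settings, only the scalings and the chromosome centring could change the direction of a gene. The 14 that were higher under normoxia were lower after TET1-si under hypoxia in every setting. Their counting intervals, computed on the deposited scale only, excluded 0 in both states. This pattern was held by 3.87% of all genes tested that have a transcript length. Over the settings the normoxia change fell as low as 0.0068 for CENPA and 0.084 for ASPM. At least 2-fold lower was 1 of 43, against 5.56% of all genes tested, and at least 2-fold higher was 0 of 43, against 12.1% of all genes tested. Among the genes higher in every setting were BIRC5 (0.61), HMMR (0.61), CDK1 (0.58), ECT2 (0.53), CDC25C (0.53) and KIF15 (0.51). CENPE (-0.43), TTK (-0.38), CDC20 (-0.36), MKI67 (-0.29) and CCNB1 (-0.18) were among those lower in every setting.

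**Figure D4:**
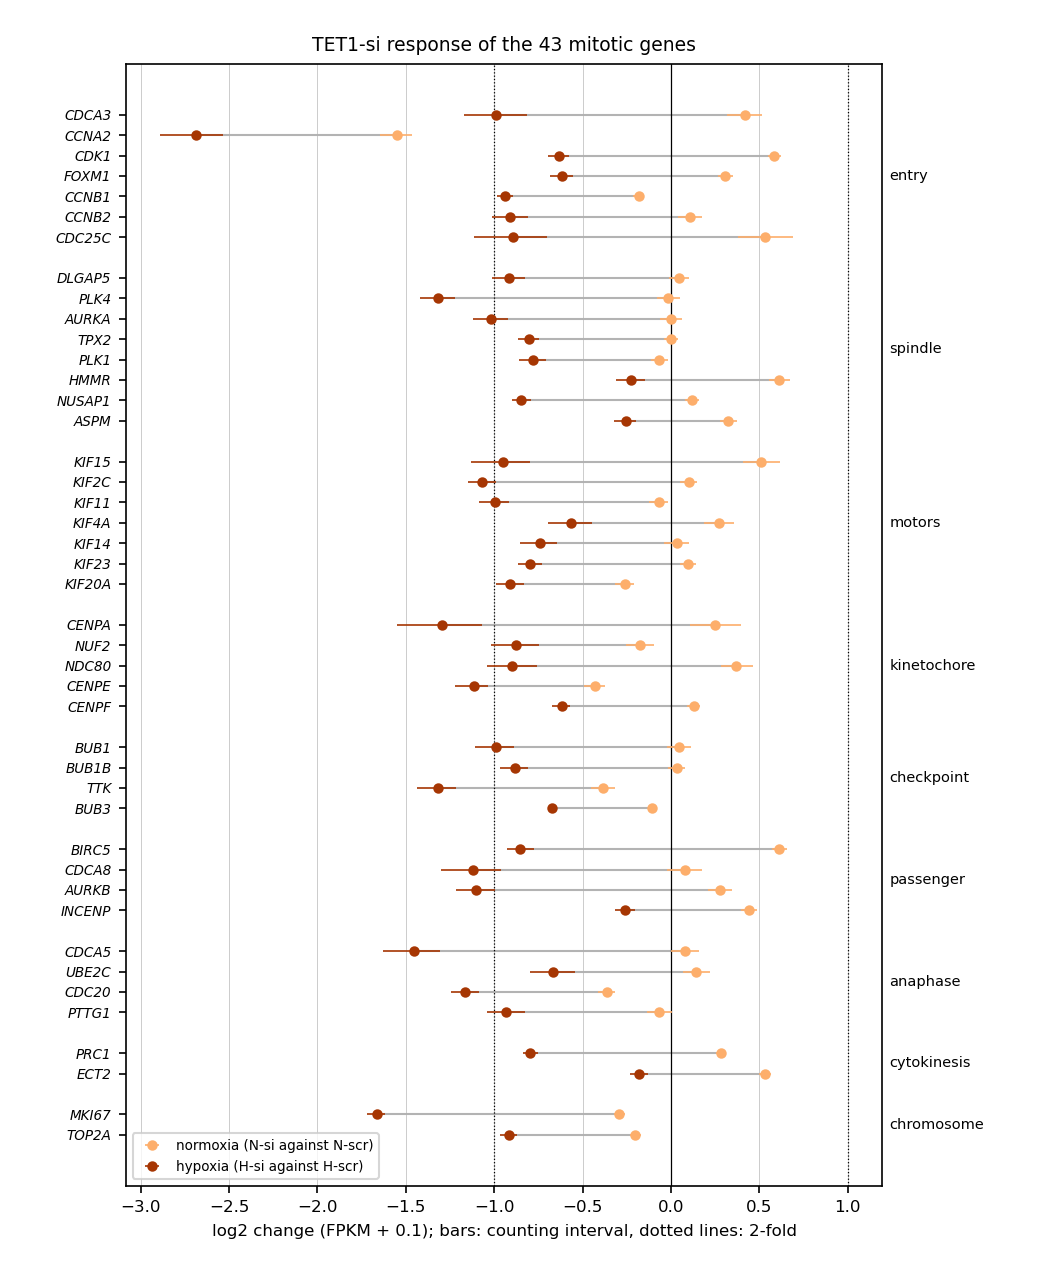
TET1-si response of each mitotic gene as a log2 change of FPKM + 0.1, under normoxia (light orange) and under hypoxia (brown); bars are 95% counting intervals and dotted lines mark 2-fold. Hypoxia points lie left of 0 for all 43 genes, normoxia points lie on both sides of 0, and CCNA2 is the 1 gene past 2-fold in both states.

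The 1 gene at least 2-fold lower under normoxia was CCNA2, named here after its values were seen. CCNA2 (ENSG00000145386, chr4:122737599-122745087, minus strand, hg19) encodes cyclin A2, which drives both S phase and entry into mitosis. It had 64.6, 22.0, 34.1 and 5.22 FPKM (N-scr, N-si, H-scr, H-si). Its TET1-si response was -1.55 (-1.64 to -1.46) under normoxia and -2.69 (-2.89 to -2.53) under hypoxia, and N-si was below H-scr, an order found in no other gene of the 43. The hypoxia response of CCNA2 was -0.92 with the scrambled control and -2.05 with TET1-si. The ratio of CCNB1 to CCNA2 FPKM was 7.14 and 7.27 in the scrambled libraries (normoxia, hypoxia) and 18.5 and 24.8 in the TET1-si libraries. CCNA2 overlaps EXOSC9 on the opposite strand, whose FPKM was 34.8, 37.0, 27.9 and 16.1, and the counting is not stated to use strand.

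The order of the genes by level changed little. Spearman's rho over the 43 genes was 0.93 to 0.98 between pairs of libraries, as a description, since levels of a gene share its length and sequence in every library. CCNB1 was at the top and KIF15 at the bottom in all 4.

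Genes with and without a CHR match had hypoxia responses that overlapped. In the hypoxia response, the median over the 28 with a match was -0.65 for scrambled and -1.72 for TET1-si cells, and over the 8 without it was -0.69 and -1.61. The ranges of the TET1-si cell values overlapped, from -2.55 to -0.97 with a match and from -2.05 to -1.36 without. An E2F motif (TTTCGCG or TTTGGCG) was in 5 of 36 promoters (13.9%), those of CDK1, KIF11, KIF15, NDC80 and NUSAP1, against 5.32% of promoters of genes that passed the minimum of 1 FPKM. ACGTG, the core bound by hypoxia-inducible factors, was in 14 of 36 (38.9%), against 26.9%. From position -100 onward it was in 4 of 36 (11.1%), against 15.7%. These shares are too close, over so few promoters, to be read as a difference.

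Other genes of the same machinery followed the set to different degrees. Counts are for the hypoxia response of TET1-si cells, where 8.66% of all genes tested were at least 2-fold lower and 12.5% higher. Of 34 further kinetochore genes tested, 25 were at least 2-fold lower in the hypoxia response of TET1-si cells and 0 were higher, with a median of -1.74. SKA3, a subunit that helps kinetochores hold microtubule ends, was the lowest (-2.66), and CENPT, a constitutive centromere protein, the highest (0.20). Of 39 further spindle and cytokinesis genes, 35 passed and 0 were higher, with a median of -1.55, from PBK, a mitotic kinase (-2.15), to WEE1, the kinase that restrains CDK1 (-0.52). Condensin and cohesin genes had 8 of 17 lower and a median of -0.79, from NCAPH of condensin (-1.86) to the cohesin loader NIPBL (0.42). The APC/C with its partners FZR1 and UBE2S had 2 of 16 lower (12.5%), near the share of all genes tested. These were UBE2S (-1.61) and ANAPC11, and the median was -0.36, with ANAPC2 highest (0.47). Among tubulins and their nucleating factors, 9 of 12 were lower with a median of -1.32, from TUBB (-2.30) to TUBGCP2 (0.04), and reads of near-identical tubulin genes may have been shared. The median of the mitotic genes (-1.67) lay between those of the further kinetochore genes and the further spindle and cytokinesis genes.

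Genes of DNA replication, which act in S phase, were lower still. In TET1-si cells under hypoxia 40 of 41 were at least 2-fold lower, against 8.66% of all genes tested. Their median was -2.09, from MCM10 (-2.85) to CCNE1 (-0.66). In scrambled cells 4 of 41 were lower, against 4.53% of all genes tested, with a median of -0.69. The median TET1-si response of the replication genes was -1.33 under hypoxia. Of the 41, 30 were at least 2-fold lower, against 8.35% of all genes tested. For the mitotic genes the median was -0.91 and the count 12 of 43. The largest TET1-si response of the replication genes was that of MCM5, a subunit of the replicative helicase (-3.02 under hypoxia and -1.22 under normoxia). In their promoters the E2F motif was in 15 of 35, CCAAT in 19 and the CHR in 2. In the mitotic genes these were in 5, 27 and 28 of 36. The CHR was also common in the further spindle and cytokinesis genes (20 of 32 promoters) and the further kinetochore genes (12 of 25). CCAAT was in 22 and 17 of these promoters, and both motifs were in 17 and 9. The motifs were thus not particular to the 43 genes.

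**Figure D5:**
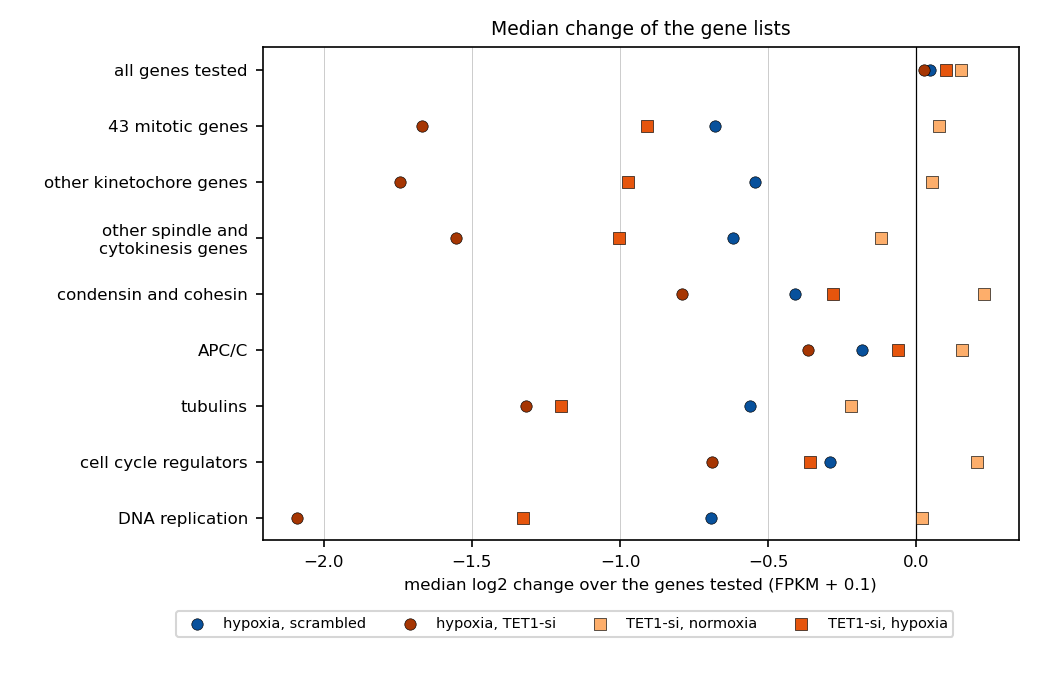
Median log2 change (FPKM + 0.1) over the genes tested in each list, for the hypoxia responses (circles) and the TET1-si responses (squares). The 43 mitotic genes, the further kinetochore and spindle genes and the replication genes lie below -1.5 in the hypoxia response of TET1-si cells, while the APC/C lies at -0.36 and all genes tested at 0.026.

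Regulators of these promoters moved in both directions. Of 24, 10 were at least 2-fold lower and 2 at least 2-fold higher in the hypoxia response of TET1-si cells. Over all genes tested these shares were 8.66% and 12.5%. MYBL2, which encodes B-MYB, had 69.9, 67.7, 34.4 and 12.002 FPKM (N-scr, N-si, H-scr, H-si), with responses of -1.02 and -2.49, lower than 42 of the 43 mitotic genes in TET1-si cells. LIN9 and LIN54, of the MuvB core, were at 9.83, 13.4, 6.90 and 3.65 FPKM and at 7.96, 9.85, 5.91 and 4.16 FPKM. RBL2, the RB-like protein of the resting-cell complex, was the highest of the regulators in TET1-si cells, at 31.7, 44.8, 59.8 and 90.5 FPKM with responses of 0.92 and 1.01. E2F4, its partner, had 157, 143, 116 and 93.4 FPKM. E2F1, an activator of S phase genes, had 33.7, 34.8, 24.8 and 8.45 FPKM, and E2F2 was the lowest of the list (-2.56). CDKN1A, an inhibitor of cyclin-dependent kinases, had 8.22, 9.35, 25.6 and 18.9 FPKM and was the highest in scrambled cells (1.62), and CDKN1B, another, had 46.9, 59.9, 56.2 and 78.1 FPKM. H-si thus held the highest RBL2 and CDKN1B of the 4 libraries, whereas CDKN1A was highest in H-scr. It also held the lowest MYBL2, LIN9, LIN54, E2F1 and E2F4.

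The study's rule for TET1-dependent hypoxia genes asked 3 things of the FPKM: more than 2 times as much in H-scr as in H-si, more in H-scr than in N-scr, and no more in N-si than in N-scr. Of the 43 mitotic genes 0 met all 3, against 3.84% of all genes tested. The first was met by 12, against 8.66% of all genes tested, the second by CDC25C alone, against 52.9%, and the third by 14, against 39.7%.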

How the data were processed

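RNA was measured in 4 FaDu libraries by RNA-Seq. Per the labels and the study's methods, the authors sequenced Illumina TruSeq mRNA libraries by HiSeq2000, ran TopHat and Cufflinks with Ensembl annotations on hg19, and deposited gene-level FPKM. Versions and filters are not given in the sources used here, and the labels and methods differ on single or paired ends. The table held 62077 rows, of which 232 rows of 111 repeated gene IDs, 1 CDCA3 row on a patch sequence listed at 0 and rows off the chr chromosomes were left out.

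From the deposited FPKM, log2(FPKM + 0.1) changes were computed (Python 3.11.15, pandas 2.3.3, scipy 1.17.1), with a minimum mean of 1 FPKM for counts over all genes. A pseudocount understates the change of low genes. Depth was recovered from 5714 single-exon genes, where 92.2% to 93.5% of low values were whole reads within 0.05, giving 22400000 to 24500000 reads per library. Approximate reads used transcript lengths of GENCODE v44lift37 less 213.5 bp. They gave the 95% Clopper-Pearson intervals and, for the difference of responses, 95% intervals by a normal approximation. Of the gene lists' symbols, CENPW and PECAM1 were not matched. Sites overlapping another protein-coding gene, as in 13 of the mitotic genes, may share reads. Strand is not stated, and it could not separate overlaps on the same strand, such as BUB1B with PAK6, CENPA with SLC35F6 and KIF15 with TMEM42.

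The genes and lists were chosen with earlier results of these data known. All 43 genes were to be named in the lists or text. Values in each library were to be given for the lowest and highest hypoxia response in TET1-si cells within each role, for CDC20, CCNB1, PLK1, AURKA, AURKB, CENPA, CENPE, MKI67, TOP2A, FOXM1, BUB3, INCENP, PTTG1 and BIRC5, and for any gene at least 2-fold higher (there was none). Outside the 43, the rule took TET1, the regulators MYBL2, E2F1, E2F4, LIN9, LIN54, RBL2, CDKN1A and CDKN1B, and the lowest and highest gene of each further list. The alternatives were pseudocounts of 1 and 0, no filter, a mean of at least 5 FPKM, median-of-ratios, upper-quartile and TPM scaling, chromosome centring and a 1.5-fold threshold. Calls and motif searches were tested on simulated data.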

Additional observations from a re-analysis of the deposited data

Results flagged for a closer look

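In 14 genes the TET1-si response was above 0 under normoxia and below 0 under hypoxia in all 10 settings. Their counting intervals, computed on the deposited scale only, excluded 0 in both states. That is 14 of 43, against 3.87% of the 14490 genes tested that have a transcript length. Only this direction was counted, higher in N-si than in N-scr and lower in H-si than in H-scr. The difference was not tested, since each group was 1 library. Only the scalings and the chromosome centring could change a sign, so the other settings add nothing to this count. The log2 changes under normoxia were 0.61 for BIRC5, 0.61 for HMMR, 0.58 for CDK1, 0.53 for ECT2, 0.53 for CDC25C, 0.51 for KIF15 and 0.44 for INCENP. They were 0.42 for CDCA3, 0.37 for NDC80, 0.32 for ASPM, 0.31 for FOXM1, 0.28 for PRC1, 0.27 for KIF4A and 0.25 for CENPA. These are values as deposited, and over the settings they fell as low as 0.0068 for CENPA and 0.084 for ASPM. Under hypoxia the same 14 ran from -1.30 for CENPA to -0.18 for ECT2.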

How the results depend on the processing

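The direction of the median, and of nearly every gene, was stable under the 9 alternatives in the hypoxia responses, in the TET1-si response under hypoxia and in the difference of responses, where 43 of 43 genes stayed below 0 in the last and in the response of TET1-si cells. Under median-of-ratios scaling the medians were -0.80 and -1.76 for the hypoxia responses of scrambled and TET1-si cells and -1.05 and -0.088 for TET1-si in hypoxia and in normoxia, with 9 genes at least 2-fold lower in scrambled cells and 26 in the TET1-si response under hypoxia. Under upper-quartile scaling 1 gene passed in scrambled cells, and medians were -1.56 in TET1-si cells and -0.040 for TET1-si under normoxia. As TPM, 0 genes passed in scrambled cells and the hypoxia medians were -0.56 and -1.53. Against chromosome medians, 20 genes passed in the TET1-si response under hypoxia and the median under normoxia was -0.11. At 1.5-fold, 27 genes were lower in scrambled cells, 38 in the TET1-si response under hypoxia and 41 in the difference, and 2 were higher under normoxia. Median-of-ratios scaling moved the median of all genes tested under normoxia from 0.15 to -0.0042, and relative to that median the mitotic genes stood at -0.071 as deposited and at -0.084. The 3 scalings by construction move every gene by nearly the same amount in a contrast, and the 1.5-fold threshold moves only the line past which a gene is counted. Pseudocounts and filters cannot change the direction of a gene either. The stability of direction therefore rests on the scalings and the chromosome centring alone. The other 112 summary values were counted as the same, under limits not given here that allowed some shift. For genes at least 2-fold lower in the TET1-si response under hypoxia, 16 with upper-quartile scaling was counted the same as 12 as deposited. Using no filter or a mean of at least 5 FPKM could not move the summary values, since all 43 genes passed both. These unmoved values are therefore no evidence of stability. Of the 1054 values for single genes and promoter shares, 284 were counted as moved and 0 called values changed sign. No paired analysis was possible because each group holds 1 library. Depth limits single genes little, with at least 198 approximate reads, and the lack of replicates limits all comparisons.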
